A study of Bos taurus with 134 samples.

Results

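The windows described here are stretches of bovine autosomes in which some oocytes were read as almost unmethylated and others as almost fully methylated. They lie on chromosomes 1 to 29, are at least 5000 and under 150000 bp long, had values in no fewer than 10 IVM and 10 IVO oocytes, and had a mean of both group means between 20 and 80%. At least 25% of the measured oocytes had a value at or below 20% (low class) and at least 25% a value at or above 80% (high class). Of the 41322 windows in the table, 12852 met the conditions on chromosome, length, oocytes measured and mean (comparable windows), and 1622 of these met the condition on both classes. The windows were chosen by the methylation values themselves, so their class shares, their mean and the spread between oocytes are given as a description. Between the classes lay 32.0% of the 49144 values in these windows, and 4 windows had no intermediate value in any oocyte. Most of them were therefore not strictly all-or-none, and they are called split windows from here on.

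Single-cell bisulfite sequencing was performed on wild-type MII oocytes of Holstein cattle, taken from 4 heifers aged 15 to 18 months that were neither lactating nor pregnant. The 26 IVM oocytes came from follicles of at most 8 mm, aspirated after GnRH, and had been matured in culture for 22 h. They were collected on other days than the IVO oocytes, so follicle size and day of collection differed with the group. The 20 IVO oocytes had matured in the animal after stimulation with 180 mg of FSH and were aspirated from follicles of at least 8 mm, 24 h after GnRH. Each value is the percentage of methylated CpG calls in a window of an oocyte, and the number of calls behind it is unknown. The number of windows measured per oocyte was used in its place. It ranged from 8050 to 32759 in IVM oocytes, with a median of 27420.5, and from 6570 to 32331 in IVO oocytes, with a median of 23134.5. The same heifers gave oocytes of both groups, but no label names the heifer of an oocyte, so each group was treated as 1 sample, no test was made, and SDs over oocytes are descriptive. IVO oocytes were libraries 19 to 38, whereas IVM oocytes were libraries 1 to 18 and 39 to 46. No pair of oocytes had identical values.

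CpG methylation is laid down in the mammalian oocyte during its growth, before maturation, mainly over transcribed regions, which leaves broad methylated domains and broad unmethylated domains. A mature oocyte arrested in metaphase II holds a haploid set of chromosomes, each as a pair of sister chromatids. A sparse single-cell library reads few CpGs of a long window, and a percentage from few calls can take few values, 0 and 100 among them.

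Split windows were shorter and were measured in slightly fewer oocytes than the other comparable windows. They had values in a median of 30 oocytes, against 32 for the others. Their median length was 45877 bp, with a range of 5341 to 148494 bp, against 61595 bp in the 11230 others. Of the comparable windows, 12.6% were split. This share was 14.8% at lengths of 5000 to 19999 bp, 18.5% at 20000 to 39999 bp, 15.0% at 40000 to 59999 bp and 7.01% from 100000 to under 150000 bp. It was 24.5% among windows measured in 20 to 24 oocytes and 6.58% among those measured in 40 to 46 oocytes. Both the length and the number of oocytes measured thus moved with the choice, and their part in it was not tested. In split windows 33.3% of values were low and 34.7% high, whereas in the others 22.6% were low and 30.2% high. Values of exactly 0 made up 17.2% of all values in split windows, and values of exactly 100 made up 29.6%. In the others these shares were 11.9 and 23.3%. The median SD over oocytes within a window was 39.5 percentage points in split windows and 32.1 in the others. The typical split window had 31.4% of its oocytes in the low class and 32.4% in the high class.

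Split windows occurred on every autosome. There were 25 on chromosome 26 and 106 on chromosome 13, with a median of 55 per chromosome. As a share of the comparable windows of the chromosome, they made up 8.12% on chromosome 26, 8.19% on chromosome 27 and 9.24% on chromosome 14 at the low end. At the high end were chromosome 5 with 14.8% and chromosome 13 with 16.5%. The remaining chromosomes lay between these, with a median over chromosomes of 12.8%.

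Along the chromosomes, split windows followed the comparable windows. Within 5 Mb of the first or the last window of the chromosome lay 17.6% of split windows and 17.5% of the others. At the first window of the chromosome these shares were 5.67 and 5.98%, and at the last window 11.9 and 11.5%. When each chromosome was divided into 10 equal stretches, the share of comparable windows that were split ranged from 11.6% in the first stretch to 14.4% in the sixth, with 12.6% in the last. No stretch stood apart from its neighbours by more than a few percentage points.

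Most split windows stood alone. Of the 1622, 1457 had no split window directly before or after them in the table, and 165 lay in 79 runs of consecutive split windows. Of these runs, 74 held 2 windows, 4 held 3 and 1 held 5. After a split window, the next window was comparable in 671 cases and itself split in 86 of them, or 12.8%. After another comparable window this share was 10.7%.

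The windows on both sides of a split window differed somewhat more from each other than those around other comparable windows. The median difference between the mean methylation of both sides was 21.7 percentage points, against 18.8. The difference reached at least 50 points at 14.7% of the 1594 split windows with both sides measured and at 11.4% of the others. One side had a mean at or above 80% and the opposite side a mean at or below 20% at 58 split windows, or 3.64%, against 2.59% of the others. At 51.1% of split windows both sides were intermediate, with means between 20 and 80%, against 59.8% of the others. A position between a highly and a lowly methylated window was thus uncommon among split windows.

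The split was far sharper in oocytes with few windows measured. An oocyte had between 377 and 1512 split windows measured. The share of these with an intermediate value was lowest in IVM oocyte 7 (10.8%, 9330 windows measured in all) and highest in IVO oocyte 27 (42.5%, 30471 windows measured). Over the 46 oocytes this share followed the number of windows measured, with Spearman's rho 0.94 and Pearson's r 0.95. With IVO oocytes 29 and 30 left out, whose number of windows was farthest from the median, rho was 0.93 and r 0.95. Within IVM oocytes rho was 0.94 (n = 26), within IVO oocytes 0.92 (n = 20), within libraries 1 to 38 it was 0.92 (n = 38) and within libraries 39 to 46, which hold IVM oocytes only, 0.88 (n = 8). The oocytes share heifers, and both measures come from the same reads of an oocyte. The other comparable windows gave the same rho of 0.94, so the relation was not particular to split windows.

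The classes did not respond alike to the number of windows measured. The share of high values in split windows was lower in oocytes with more windows (rho -0.91), and the share of values of exactly 100 likewise (rho -0.92). The share of low values was higher in these oocytes (rho 0.55), although values of exactly 0 were fewer (rho -0.73). The relation of low values was not seen in IVM libraries 39 to 46 (rho 0.048, n = 8, and -0.37 without IVM oocytes 41 and 46), and in the other comparable windows of all oocytes rho was 0.061. The mean methylation of split windows also followed the number of windows measured (rho -0.82, r -0.89). This relation was about the same in the other comparable windows (rho -0.77) and over all windows of the autosomes (rho -0.80). Within libraries 1 to 38 rho in split windows was -0.89 (n = 38). Within IVM libraries 39 to 46 it was -0.48 (n = 8), and 0.086 without IVM oocytes 41 and 46, so that there it rested on these oocytes. IVO oocyte 30, with 6570 windows, had 65.9% high and 21.2% low values. IVM oocyte 46, with 32759 windows, had 24.3% high, 40.1% intermediate and 35.6% low values, and IVO oocyte 28, with 32331 windows, had 24.1, 42.1 and 33.7%. Intermediate values were thus the most frequent kind in these deeply measured oocytes. They were still less frequent than in the other comparable windows of the same oocytes, where they made up 53.9% in IVM oocyte 46 and 57.3% in IVO oocyte 28, a difference in the direction that the choice of windows sets.

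The same was seen window by window. In 1112 of the 1622 split windows, or 68.6%, the oocytes in the low class had a higher median number of windows measured than the oocytes in the high class. This share was not taken over the other comparable windows, so it is not read as particular to split windows. The share of high values per oocyte followed the number of windows measured in those windows too (rho -0.89). The median over split windows was 27468.5 windows measured in oocytes of the low class and 24394 in those of the high class. Without the 11 oocytes with the fewest windows measured (5 IVM and 6 IVO), 976 windows met the rule, and 817 of them were split windows of the full set. Of the split windows that were still comparable in these 35 oocytes, 68.5% still met the rule, against 9.28% of all windows comparable in them. The values of these oocytes had also chosen the split windows, so this share was partly set by the choice.

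No oocyte was low or high throughout. Among the split windows in which an oocyte was in a class, the share in the high class ranged from 33.9% in IVM oocyte 12 to 75.7% in IVO oocyte 30, with a median of 51.7%. Pairs of oocytes had the same class in a median of 49.2% of the split windows in which both were in a class, over 1035 pairs. This median was 49.5% for pairs of IVM oocytes, 49.7% for pairs of IVO oocytes and 48.8% for an IVM and an IVO oocyte. The highest value, 82.9%, was between IVO oocytes 30 and 36, over 123 windows, and the lowest, 24.4%, between IVM oocytes 7 and 12, over 250 windows. IVO oocytes 30 and 36 and IVM oocyte 7 all had at most 11808 windows measured and mostly high values, whereas IVM oocyte 12 had the lowest mean of all oocytes. Split windows were chosen to hold both classes, so the medians over pairs of oocytes were partly set by the choice. They were not taken over the other comparable windows.

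Neighbouring windows were in the same class slightly more often than distant ones. A split window and the next window on the chromosome were both in a class in 13062 cases, and in 58.2% of these in the same class. Over the 26 IVM oocytes this share was 59.5% ± 5.30 (SD), and over the 20 IVO oocytes 58.0% ± 4.75. When the split window was paired with the next window of a split window on another chromosome in the same oocyte, the share was 51.0%. Where the next window was itself split, it was 57.8% over 86 pairs of windows, against 51.5% for split windows on different chromosomes. Where the next window had a mean at or below 20%, the share was 70.4%, against 56.4% for such windows on another chromosome. Where that mean was at or above 80%, the shares were 54.7 and 52.7%. The class of a split window was a weak guide to the class of its neighbour, with the highest share beside lowly methylated windows. The pairs on another chromosome were not matched for the mean of the split window, and the part of likeness in mean was not tested. The other comparable windows shared the class of the next window more often (64.0%, against 51.8% on different chromosomes). Where neither of the neighbours was split and both were comparable, the share was 60.7%, against 57.8% where both were split. Split windows were chosen to hold both classes, so these differences were partly set by the choice.

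The likeness of split windows was limited to short distances. For pairs of split windows whose midpoints lay under 100 kb apart, the same-class share was 57.8% over 153 pairs. It was 55.4% at 100 to 250 kb and 51.5% at 250 to 500 kb. From 500 to 1000 kb it was 51.8%, and at 20000 kb or more it was 51.6%, close to the 51.5% of different chromosomes. With consecutive windows left out, the share under 100 kb was 57.7% over 78 pairs.

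The longest run held 5 split windows over 327412 bp at chr15:53280916-53608327 (UMD3.1), and its windows were seldom all read in the same class in an oocyte. From first to last they were in the low class in 9, 11, 11, 11 and 7 oocytes and in the high class in 16, 11, 8, 8 and 7 oocytes. Windows 2 and 3 of the run, 7 bp apart, had the same class in 5 of 7 oocytes that were in a class in both. Windows 4 and 5, also 7 bp apart, had it in 7 of 9 oocytes. Windows 3 and 4, 39 bp apart, had it in only 3 of 10, and windows 1 and 2, 1205 bp apart, in 6 of 12. Of the 19 oocytes in a class in at least 3 windows of the run, 1 had the same class in all of them. These counts are small, and the number of calls behind each class is unknown. IVM oocytes had a mean of 52.7% ± 35.7 (SD, n = 19) in window 1, against 70.6% ± 37.4 (SD, n = 15) for IVO oocytes. Window 4, chr15:53544804-53582480, holds the whole gene body of P2RY6, which encodes a G protein-coupled receptor for UDP. It ranged from 0 to 100% in both groups, with a median of 26.1% in IVM and 66.7% in IVO oocytes. The means differed by less, at 40.3% in IVM and 56.2% in IVO oocytes. Their difference was -15.9 points, and -11.0 points with IVM libraries 1 to 18 only.

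Among the 344 split windows measured in at least 35 oocytes, the most sharply divided was chr17:73507177-73515540, of 8364 bp. It lies inside the gene body of UPB1, which encodes beta-ureidopropionase, an enzyme of pyrimidine breakdown. Of 41 oocytes, 14 were low, 26 were high and 1 was intermediate, and each of the 26 high oocytes had a value of exactly 100%. IVM oocytes ranged from 5.88 to 100% with a median of 100%, and 9 of 24 were low. IVO oocytes ranged from 6.67 to 100% with a median of 100%, and 5 of 17 were low. Both groups thus held both states in similar proportions. The windows before and after it had a mean of 12.7 and 39.1%.

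The next was chr11:27255379-27267904, of 12526 bp, where 14 of 39 oocytes were low, 23 high and 2 intermediate. Both groups ranged from 0 to 100% with a median of 100%, and 9 of 21 IVM and 5 of 18 IVO oocytes were low. At chr14:30805737-30813866, of 8130 bp, 15 of 39 oocytes were low and 20 high. IVM oocytes had a median of 31.0% and IVO oocytes of 100%, both groups ranged from 0 to 100%, and 10 of 22 IVM and 5 of 17 IVO oocytes were low. The means differed by less, at 48.9% in IVM and 70.4% in IVO oocytes, or -21.5 points. At chr11:106555493-106573854, 15 of 35 oocytes were low and 16 high, and 8 of 18 IVM and 7 of 17 IVO oocytes were low. The median there was 22.3% in IVM and 100% in IVO oocytes, again with a range of 0 to 100% in both. The difference of the means was -14.8 points, and -5.47 points with IVM libraries 1 to 18 only. The groups overlapped over the whole range at each of these windows.

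The 2 remaining windows among the 6 most divided lay between a lowly and a highly methylated window. At chr19:13609364-13650529, 18 of 35 oocytes were low and 14 high, with a mean of 14.0% in the window before it and of 94.6% in the window after it. Its median was 15.9% in IVM and 14.9% in IVO oocytes. At chr5:38674387-38799834, of 125448 bp, 11 of 35 oocytes were low and 20 high, and the sides had means of 10.2 and 94.0%. This window overlaps part of GXYLT1, which encodes a xylosyltransferase that modifies sugars on Notch. Its median was 82.9% in IVM and 100% in IVO oocytes, with a range of 0 to 100% in both groups. The means were close, at 62.8% in IVM and 63.9% in IVO oocytes. They differed by -1.08 points, and by -8.81 points with IVM libraries 1 to 18 only. In all 6 windows, the oocytes in the low class had a higher median number of windows measured than those in the high class, as at chr17:73507177-73515540 with 28611 against 23812.5.

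Around the limit of 25%, 207 split windows had the smaller of their class shares at exactly 25%. At chr6:26257585-26347228, 12 of 44 oocytes were low and 11 high, and at chr13:59868915-59911266, 11 of 44 were low and 18 high. Just outside the limit, chr18:2548878-2590604 had 11 low and 20 high oocytes of 45, and chr18:5367431-5387517 had 17 low and 11 high oocytes of 45. A single oocyte in another class would move such a window across the limit.

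To see whether the split recurred between the groups, the rule on classes was applied to 1 group and read in the other, within the comparable windows, for which the means and the oocytes measured of both groups had counted. Of the comparable windows, 1611 met the rule in IVM oocytes alone. In IVO oocytes, 568 of these, or 35.3%, met it as well, against 16.0% of the 11241 comparable windows not chosen and 18.4% of all comparable windows. In the reverse direction, 2364 windows met the rule in IVO oocytes and 568 of them, or 24.0%, met it in IVM oocytes, against 9.94% of those not chosen and 12.5% of all. A split in 1 group thus went with a split in the other more often than in windows not chosen, although most chosen windows did not meet the rule again. Without the limit on the mean of both groups, chosen after seeing the data, the shares read in IVO oocytes were 35.2% for the 1612 windows chosen in IVM and 11.7% for those not chosen. With IVM libraries 1 to 18 only, the shares read in IVO oocytes were 31.7% for chosen windows and 14.9% for the others. Windows chosen in IVM were also shorter than those not chosen, with a median of 48077 bp against 61329 bp, and were read in a median of 12 against 13 IVO oocytes. The quartiles of their mean were 46.3 and 59.5%, against 38.2 and 67.4%. The part of length, oocytes measured and mean in this was not tested. Of the 1622 split windows, 568 met the rule in both groups, 397 in IVM only, 440 in IVO only and 217 in neither group alone.

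Methylation of split windows was lower in IVM than in IVO oocytes by less than the spread between oocytes. The mean over the split windows of an oocyte ranged from 39.9 to 71.9% in IVM, with a median of 47.7%, and from 45.1 to 72.3% in IVO, with a median of 54.1%. The groups overlapped over nearly their whole range. IVM oocytes averaged 51.1% ± 9.46 (SD, n = 26) and IVO oocytes 55.6% ± 6.62 (SD, n = 20), a difference of -4.51 percentage points. In the other comparable windows the means were 53.7% ± 8.10 and 56.5% ± 5.85, a difference of -2.87 points. Within libraries 1 to 38 the difference in split windows was -3.82 points, and for IVM libraries 39 to 46 against IVO it was -6.05 points.

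IVM oocytes also had more windows measured, which moved with methylation as described. Without the 11 oocytes with the fewest windows measured, the difference in split windows was -5.26 points. In a linear fit with the number of windows measured, chosen after seeing the data, it was -1.76 points, and the pooled SD over oocytes of the mean was 8.35 points. With the median over the split windows of an oocyte in place of the mean, and no such fit, IVM oocytes averaged 51.6% ± 25.6 (SD, n = 26) and IVO oocytes 61.7% ± 21.8 (SD, n = 20), a difference of -10.1 points. Among the classes, IVM oocytes had 35.4% ± 13.6 high values (SD, n = 26) and IVO oocytes 41.7% ± 10.5 (SD, n = 20). Low values made up 33.5% ± 5.92 in IVM and 30.9% ± 3.59 in IVO, and intermediate values 31.1% ± 9.20 and 27.4% ± 8.28. Each of these differences was smaller than the SD over oocytes of the IVM group.

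At single split windows the differences between the groups were wider and pointed both ways. The median difference of IVM from IVO was -4.98 points, and 1035 of 1622 windows, or 63.8%, had a lower mean in IVM, against 60.6% of all comparable windows. The mean was lower in IVM by at least 20 points in 244 split windows, or 15.0%, against 8.05% of the comparable windows. It was higher in IVM by at least 20 points in 81 windows, or 4.99%, against 2.89%. Both shares were above those of the comparable windows, as was the SD over oocytes within a window, and the part of that SD was not tested. The rule read both groups together, so a window could meet it because its groups differed. Of the split windows, 397 met it in IVM only, 440 in IVO only and 217 in neither group alone. The higher shares are thus partly set by the choice and are given as a description. Without the 11 oocytes with the fewest windows measured, 281 split windows were lower and 97 higher, or 17.3 and 5.98%, against 9.46 and 3.17% of the comparable windows. With a linear fit on the windows measured, chosen after seeing the data, 209 were lower and 107 higher, or 12.9 and 6.60%, against 7.08 and 3.53%. At a difference of at least 30 points, 77 split windows were lower and 17 higher, or 4.75 and 1.05%, against 1.6 and 0.373%.

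The largest differences among the 344 split windows with values in 15 or more IVM and 15 or more IVO oocytes still left overlapping groups. At chr5:115262357-115293361, IVM oocytes ranged from 0 to 75.0% with a median of 16.7%, and none of 16 was high. IVO oocytes ranged from 0 to 100% with a median of 80.0%, and 8 of 15 were high. This window was thus split over both groups together but not in IVM oocytes, and it met the rule through the high IVO oocytes. Its difference is part of what the rule chose and is given as a description. The means were 18.5% ± 19.8 and 63.9% ± 39.3, a difference of -45.4 points, and of -49.3 points with IVM libraries 1 to 18 only. At chr5:120416816-120450145, 11 of 20 IVM oocytes were low and 4 high, whereas 3 of 15 IVO oocytes were low and 10 high. The medians there were 18.4 and 100%, and the means 35.6% ± 37.1 and 78.4% ± 35.4, a difference of -42.9 points. With 4 of 20 IVM oocytes high and 3 of 15 IVO oocytes low, that window met the rule in neither group alone. Its difference is likewise part of what the rule chose and is given as a description. Both windows lie toward the end of chromosome 5, and at both the oocytes in the low class had more windows measured.

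In the opposite direction, chr8:84920512-84981117 had a mean of 63.8% ± 35.1 over 16 IVM oocytes and of 32.9% ± 31.6 over 16 IVO oocytes, a difference of 30.8 points. IVM oocytes ranged from 6.67 to 100% with a median of 55.0%, and IVO oocytes from 0 to 100% with a median of 25.0%. This window was barely split, as 15 of its 32 oocytes were intermediate. Only 2 of 16 IVM oocytes were low and 2 of 16 IVO oocytes high, so it met the rule in neither group alone. At chr4:78193049-78250848 the mean was 66.6% ± 34.5 over 25 IVM oocytes and 42.7% ± 41.5 over 17 IVO oocytes, a difference of 23.9 points. Low values were read there in 4 IVM and 7 IVO oocytes, and high values in 13 and 6. With 4 of 25 IVM oocytes low, that window did not meet the rule in IVM oocytes alone. The differences at both windows are part of what the rule chose and are given as a description. At both of these windows the oocytes in the low class had fewer windows measured, with 25786 against 27213 on chromosome 8 and 22854 against 24394 on chromosome 4.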

How the data were processed

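Reads of single-cell bisulfite libraries were trimmed by the authors with Trim Galore 0.4.4, aligned with Bismark 0.18.2 to UMD3.1 (version 3.1.1 in the study's methods) and deduplicated. The deposited unit is the percent of methylated CpG calls per window and oocyte, and oocytes were not pooled. Its name gives 20 CpGs per window but the study's methods describe longer tiles, so the CpGs per window are uncertain. Depth per window is unknown, so no coverage minimum or interval was used. Expression values were not used here.

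Consecutive rows of the table were taken as neighbours. A same-class share counts only oocytes in the low or high class in both windows. Means were taken over windows of an oocyte, then over oocytes. Windows named were the 6 with the highest share of low or high values among those measured in at least 35 oocytes, the 2 largest differences of each sign among those with values in 15 or more IVM and 15 or more IVO oocytes, the longest run, and 2 on each side of the limit. Gene names come from gene coordinates of the study on UMD3.1 that were read only in part, so other named windows may hold genes too. The members and lists were chosen with earlier results of these data known. Code was tested on simulated data. Alternatives covered class limits, shares, oocytes, lengths, neighbours and averages. With fewer oocytes, windows were chosen anew for the count and for the choice within a group, and the full list was kept for the other results. Python 3.11.15, numpy 2.4.6, pandas 2.3.3 and scipy 1.17.1 were used.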

Additional observations from a re-analysis of the deposited data

How the results depend on the processing

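The number of split windows depended strongly on the limits. It was 506 with class limits of 10 and 90%, 230 with exactly 0 and exactly 100%, 3433 with a share of 20% and 572 with a share of 30%. It was 3246 with at least 5 oocytes per group, 344 with at least 15, and 976 without the 11 oocytes with the fewest windows measured, where the number of comparable windows changed as well. As a share of these, split windows made up 16.4, 8.46 and 9.28%, against 12.6%. Of windows chosen in IVM, 23.4% met the rule in IVO with limits of 10 and 90%, 30.3% without these oocytes and 31.7% with IVM libraries 1 to 18 only. In each of these settings this exceeded the share among windows not chosen, which was 7.66, 12.5 and 14.9%. At a difference of 30 points, 77 split windows were lower and 17 higher in IVM, or 4.75 and 1.05%, against 1.6 and 0.373% of the comparable windows. Within 10 Mb of a chromosome end lay 31.3% of split windows and 32.8% of the other comparable windows. By construction, stricter limits give shorter lists, looser limits give longer ones and a wider end zone holds a larger share. The cause of the other changes was not tested.

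The other 28 of 41 alternatives, including the 5 chosen after seeing the data, moved the result by less than the limit set for it. No difference changed sign. The limit was a factor of 1.5 for counts, a fixed step for rho and the SD over oocytes for means and same-class shares. For other shares it was a binomial interval over windows. For the difference of IVM from IVO, the limit of 8.35 points was wider than the difference of -4.51 points itself. Values of -1.76 and -10.1 points thus counted as unmoved. No paired analysis was possible because the labels used here name no heifer for an oocyte, although the same heifers gave both groups. The number of calls per value is unknown, so the precision of a class call could not be given. The part of the heifers was not tested. Libraries 39 to 46 hold IVM oocytes only.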
